A study of Mus musculus with 2 samples.

Results

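Mitochondrial oxidative phosphorylation genes that are encoded in the nucleus were examined in single cells of the mouse periodontium. The members were every gene whose symbol begins with Ndufa, Ndufb, Ndufc, Ndufs, Ndufv, Uqcr, Cox4 to Cox8 or Atp5, together with Sdha, Sdhb, Sdhc and Sdhd. This rule reads symbols only, though it was set with earlier results of these data known, and it gave 93 of the 31053 genes in the count matrices. They carried 92 symbols, because Atp5o was listed under 2 Ensembl identifiers. Single-cell RNA-seq had been performed on 2 libraries of C57BL/6 WT mice aged 8 weeks. The ligature-induced periodontitis (LIP) library pooled cells from the gingiva and alveolar bone surface of 5 mice at 7 days after a silk ligature was tied around a molar. The control library came from the same tissue of untreated mice, whose number is not given in the sources used here. Each condition was thus 1 library, so differences between conditions could not be tested against a spread between animals, and condition and library cannot be told apart.

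Oxidative phosphorylation takes place in the inner mitochondrial membrane. NADH dehydrogenase (complex I) and succinate dehydrogenase (complex II) pass electrons by way of ubiquinone to the cytochrome bc1 complex (complex III), and cytochrome c carries them on to cytochrome c oxidase (complex IV), which reduces oxygen. Complexes I, III and IV pump protons, and ATP synthase (complex V) makes ATP as protons flow back. Most subunits are nuclear-encoded and the rest are made from mitochondrial DNA (mt-encoded), and several subunits of complex IV have isoform genes that are restricted to certain tissues. Mature neutrophils are known for few mitochondria and a reliance on glycolysis, and osteoclasts for abundant mitochondria.

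Cells were kept if they had 200 to 7500 genes, at most 60000 UMIs and at most 10% mt- UMIs, which left 936 LIP and 883 control cells (1819 in all). Of the barcodes, 2 occurred in both libraries. The cells fell into 11 classes named from marker genes, to which "-like" is added, and 82 LIP and 89 control cells stayed unnamed. Members and mt- genes had been held out of the features used for clustering. Median depth was 5595 UMIs per LIP cell and 10845 per control cell. Levels are given in CPM, that is, as UMIs among 1000000 UMIs of a class. In this 3′ assay each captured molecule is counted once, and no length scaling was applied. Intervals are exact 95% intervals and cover counting error only.

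The members held 537470 UMIs in the cells kept. Complex V (17 genes) took 29.9% of them, complex I (44 genes) 29.0%, complex IV (20 genes) 28.6%, complex III (8 genes) 10.8% and complex II (4 genes) 1.76%. The rule does not take every nuclear-encoded subunit: Cyc1 of complex III, for example, is not a member. Nor do all of these genes encode subunits. Complex I here includes 8 Ndufaf assembly factors (0.923% of member UMIs), complex IV the 2 paralogs Ndufa4l2 and Cox7a2l (1.78%) and complex V Atp5s (0.0365%). The most abundant members in UMIs were Cox8a (21246), Cox4i1 (20549) and Cox6c (19110) of complex IV, and Atp5e (20497), which encodes the epsilon subunit of the ATP synthase F1 part. In complex V they were followed by Atp5l (14783), for the membrane subunit g, and Atp5b (13518), for the catalytic beta subunit. Complex III was led by Uqcrh (14243), the hinge protein, before Uqcr11 (9356) and Uqcrq (7795). In complex I the accessory subunits Ndufa2 (6923), Ndufa7 (6916) and Ndufa13 (6866) were nearly level. Summed over its 4 genes, complex II was lowest. The iron-sulfur subunit Sdhb had 3103 UMIs, the membrane anchors Sdhd and Sdhc 2189 and 2174, and the flavoprotein Sdha 1991. Some single members of complex I, such as Ndufs1 (1079), had fewer. In all, 87 members had at least 100 UMIs and 90 had at least 1. The remaining 3 were Cox7b2, Cox8c and the second Atp5o identifier.

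Promoter sequences from RefSeq (GRCm38.p6, 250 bases before to 50 after the start) were found for 76 of the 92 symbols. A motif associated with the transcription factor NRF1, made of GCGCA, any base and GCGC, was searched on both strands. It lay in the promoters of 19 of these 76 members against 1402 of 27025 genes in the table (5.19%). By complex it was in 9 of 39 members of complex I, 2 of 3 of complex II, 1 of 5 of complex III, 1 of 14 of complex IV and 6 of 15 of complex V. CCGGAAG, a form of the motif of ETS factors such as GABP, was in 18 of 76 members (23.7%) against 9.93% of genes. The promoters of 4 members from the ends of the LIP comparison of neutrophil-like with macrophage-like cells below are shown. They are Atp5g1, Ndufa5 and Atp5g2, ranked 1, 2 and 5 from the lowest, and Ndufa3, the highest. Ndufs3 and Ndufab1, ranked 3 and 4 from the lowest, are not shown, and neither had a match to the NRF1-type motif. Capitals mark matches to the NRF1-type motif. Atp5g1 lies at chr11:96075582-96075881 (minus strand), Atp5g2 at chr15:102670998-102671297 (minus strand), Ndufa5 at chr6:24527641-24527940 (minus strand) and Ndufa3 at chr7:3617123-3617422 (plus strand).
Atp5g1: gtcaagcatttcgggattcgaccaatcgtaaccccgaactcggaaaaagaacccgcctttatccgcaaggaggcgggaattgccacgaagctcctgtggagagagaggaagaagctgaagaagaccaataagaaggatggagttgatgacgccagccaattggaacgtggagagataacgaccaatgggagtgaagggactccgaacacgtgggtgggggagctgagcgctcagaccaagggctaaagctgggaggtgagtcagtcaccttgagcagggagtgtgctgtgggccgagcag
Atp5g2: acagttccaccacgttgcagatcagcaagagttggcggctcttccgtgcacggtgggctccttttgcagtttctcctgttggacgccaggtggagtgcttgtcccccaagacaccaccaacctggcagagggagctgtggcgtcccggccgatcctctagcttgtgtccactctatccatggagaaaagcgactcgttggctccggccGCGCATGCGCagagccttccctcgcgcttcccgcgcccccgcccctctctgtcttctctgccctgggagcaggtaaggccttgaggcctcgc
Ndufa5: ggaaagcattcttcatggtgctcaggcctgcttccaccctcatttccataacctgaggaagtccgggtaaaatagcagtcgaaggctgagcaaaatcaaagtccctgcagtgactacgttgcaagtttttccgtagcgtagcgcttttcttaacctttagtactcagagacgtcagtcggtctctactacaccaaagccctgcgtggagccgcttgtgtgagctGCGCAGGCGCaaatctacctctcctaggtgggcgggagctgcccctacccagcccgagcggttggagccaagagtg
Ndufa3: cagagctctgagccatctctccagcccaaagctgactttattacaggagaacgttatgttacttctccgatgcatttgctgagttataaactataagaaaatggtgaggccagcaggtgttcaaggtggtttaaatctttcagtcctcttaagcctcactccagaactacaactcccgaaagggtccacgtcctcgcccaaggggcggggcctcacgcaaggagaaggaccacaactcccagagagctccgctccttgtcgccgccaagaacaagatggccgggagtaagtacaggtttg
In the promoters shown, Atp5g2 and Ndufa5 each had 1 match, and Atp5g1 and Ndufa3 had none. Only 1 promoter is shown per gene, whereas the counts above used every promoter listed for a gene. A match is a run of letters and not evidence of binding.

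Among the cell classes the members were highest in mural-like and epithelial-like cells and lowest in neutrophil-like and erythroid-like cells, in both libraries. Mural-like cells reached 30048 CPM (29625 to 30476; 45 cells) in the LIP library and 27629 CPM (27207 to 28056; 46 cells) in the control library. Epithelial-like cells had 28116 CPM (112 cells), below mural-like cells in LIP, and 27738 CPM (224 cells), slightly above them in control, where both intervals overlapped. As a median over single cells the LIP order was reversed, with 2.78% in epithelial-like and 2.75% in mural-like cells. Thus nearly 3 of every 100 mRNA molecules counted in these cells came from the members. T-like cells had 24528 CPM in LIP (27 cells) and 17808 CPM in control (51 cells), and Schwann-like cells 22079 CPM (103 cells) and 21133 CPM (37 cells). Both endothelial-like classes, the macrophage-like, the B-like and the osteogenic-like class lay together between 19140 and 21831 CPM in LIP. Their control values ran from 14306 CPM in B-like cells to 21190 CPM in lymphatic endothelial-like cells. Neutrophil-like cells had 7450 CPM (7317 to 7584; 320 cells) in LIP and 9079 CPM (8826 to 9338; 55 cells) in control. Erythroid-like cells, whose RNA is mostly globin, had 2753 CPM (9 cells) and 991 CPM (12 cells).

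**Figure D1:**
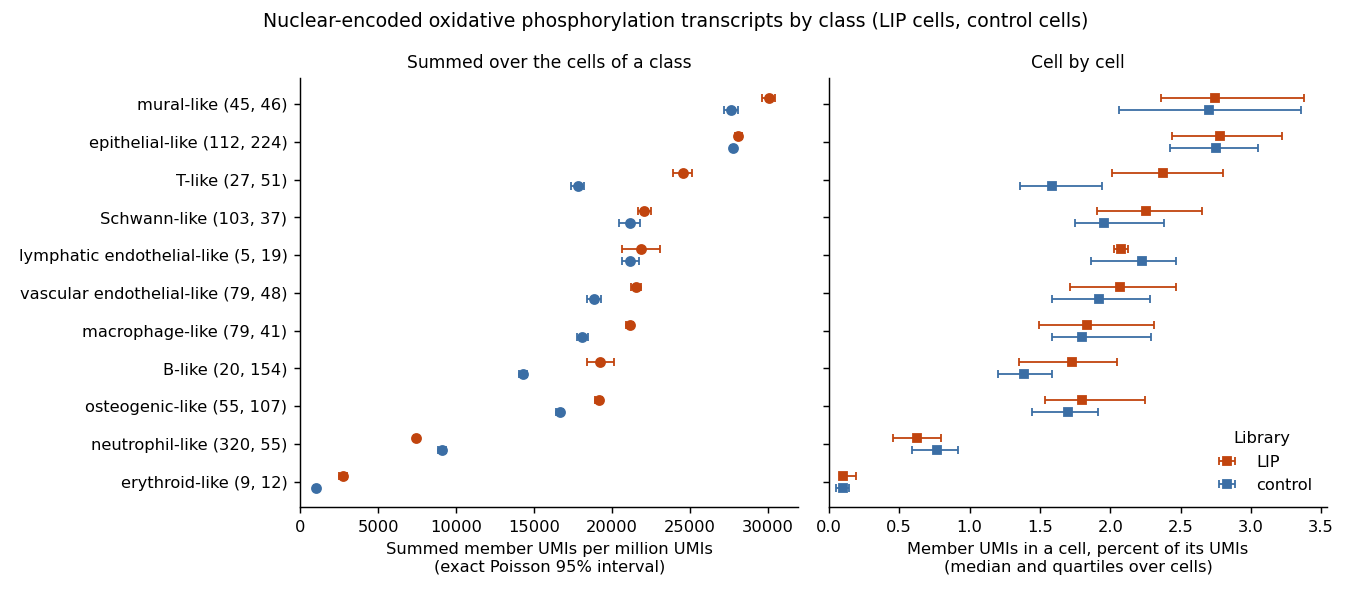
Left: summed member CPM of each class with exact Poisson 95% intervals; right: members' share of the UMIs of single cells, as median and quartiles over cells, for LIP (orange) and control (blue). Neutrophil-like cells (7450 and 9079 CPM) lie below every other class except the erythroid-like one, and mural-like cells (30048 and 27629 CPM) and epithelial-like cells (28116 and 27738 CPM) lie at the top on the summed scale, the former highest in LIP and the latter in control.

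The spread over single cells was wide within a class. The members' share of a cell's UMIs had quartiles of 0.457% and 0.797% around a median of 0.629% in LIP neutrophil-like cells. In LIP macrophage-like cells the quartiles were 1.49% and 2.31% around 1.84%, so that the middle parts of both distributions did not overlap. The same held in the control library, with 0.593% to 0.920% against 1.59% to 2.29%. Depth differed between these classes (median UMIs of 3878 and 16668 in LIP, and 6564 and 13775 in control). Were each cell thinned to 1000 UMIs, neutrophil-like cells would hold a mean of 6.58 member UMIs (311 cells) in LIP and 7.89 (55 cells) in control (hypergeometric expectation). Macrophage-like cells would hold 19.3 (77 cells) and 18.8 (39 cells). These expectations equal the mean share over cells of at least 1000 UMIs, so they weigh cells equally but do not test an effect of depth.

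To describe the low level in neutrophil-like cells gene by gene, they were compared with macrophage-like cells, the other myeloid class, within each library. In LIP the members summed to 7450 against 21130 CPM, a log2 ratio of -1.50 (-1.53 to -1.47). Of the 73 members with at least 100 UMIs over both classes, 71 were lower by 1.5-fold or more, where 49.9% of all 3384 such genes were. None of the 73 was higher by that much, against 22.8% of all genes. The median member had a log2 ratio of -1.76, and the median of all genes was -0.58. Scaling moved these values: with trimmed-mean (TMM) factors all ratios shifted by +0.92 and with DESeq2 size factors by +1.18, which left 46 and 36 of the 73 members lower by 1.5-fold and 0 and 2 higher. Of all genes, 29.7% were then lower and 43.5% higher with TMM factors, and 25.6% lower and 50.2% higher with DESeq2 factors. Relative to the median of all genes, which no scaling changes, 71 of 73 members were lower.

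All 5 complexes were lower in neutrophil-like than in macrophage-like cells of the LIP library in CPM. The log2 ratio was -1.80 for complex III (621 against 2155 CPM), -1.65 for complex II (138 against 435 CPM) and -1.60 for complex V (2167 against 6552 CPM). It was -1.46 for complex I (2143 against 5893 CPM) and -1.36 for complex IV (2381 against 6095 CPM). The 13 mt-encoded subunit genes were at -1.57 (10001 against 29730 CPM). Ribosomal protein transcripts, which are not members, were further below 0, at -2.27 (30618 against 147959 CPM). A low level in neutrophil-like cells was thus not particular to the members. With the TMM shift all of these sums stayed below 0, and with the DESeq2 shift also. Complex II as a whole had only 224 UMIs in these neutrophil-like cells.

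Single members ranged widely. Atp5g1, 1 of 3 genes for the same mature c subunit of the ATP synthase ring, was lowest, with 19.8 CPM in neutrophil-like and 358 CPM in macrophage-like cells of LIP (log2 ratio -4.18, -4.74 to -3.66). Next came Ndufa5, an accessory subunit of complex I, with 9.27 against 92.5 CPM (15 against 135 UMIs, log2 ratio -3.32, -4.20 to -2.55). Ndufs3, a core subunit, had 8.65 against 78.1 CPM (14 against 114 UMIs, log2 ratio -3.17, -4.09 to -2.37). Ndufab1, the mitochondrial acyl carrier protein, had 15.5 against 138 CPM (-3.16, -3.82 to -2.55), and Atp5g2 50.1 against 445 CPM (-3.15, -3.50 to -2.82). The intervals from Ndufa5 to Atp5g2 overlapped, so the order among these members was not resolved. At the other end stood accessory subunits of complex I and small subunits of complexes IV and V. Ndufa3 had 192 against 250 CPM (-0.38), Ndufa7 175 against 251 CPM (-0.52) and Ndufb7 140 against 223 CPM (-0.67). Cox8a had 520 against 810 CPM (-0.64) and Atp5l 435 against 716 CPM (-0.72). These 5 would be above 0 with either other scaling. Members of complex I thus made up both 3 of the 5 lowest and 3 of the 5 highest.

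**Figure D2:**
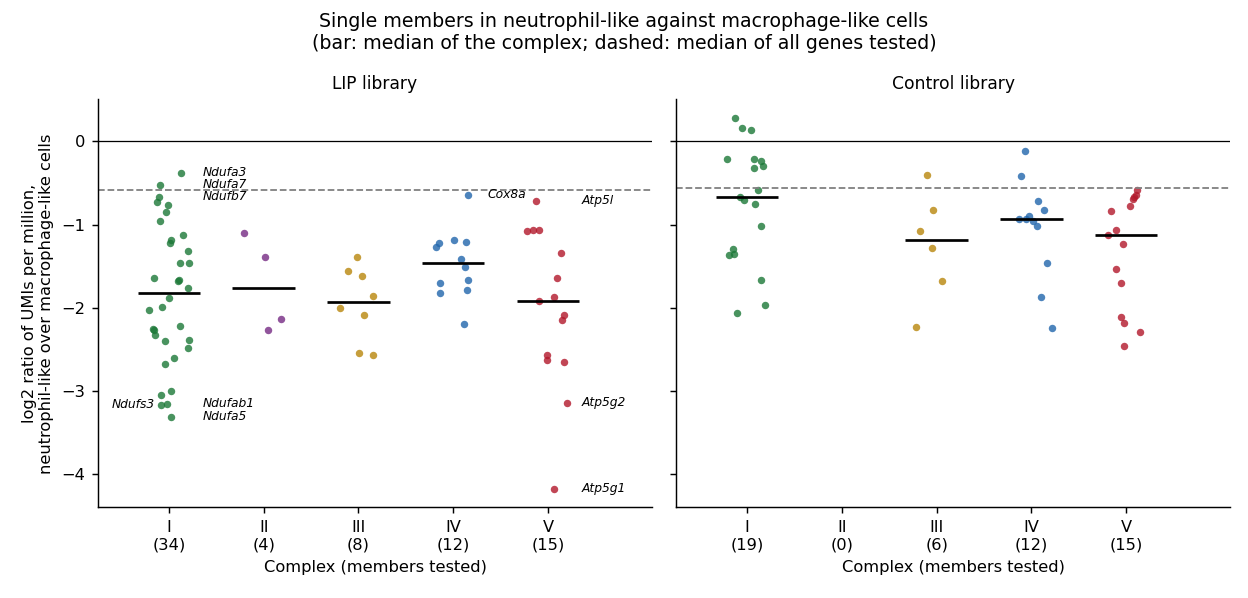
log2 ratio of CPM in neutrophil-like over macrophage-like cells for each member with at least 100 UMIs over both classes, by complex, in the LIP (left) and control (right) library. Bars are medians of a complex and the dashed line is the median of all genes (-0.58 and -0.56); in LIP all 73 members lie below 0 in CPM, though 8 would not with TMM and 14 with DESeq2 factors, and Atp5g1 is lowest at -4.18.

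In the control library the members were also lower in neutrophil-like cells, with 9079 against 18095 CPM and a log2 ratio of -0.99 (-1.04 to -0.95). Fewer members had enough UMIs there. Of 52, 39 were lower by 1.5-fold or more (49.0% of 1364 genes) and 0 were higher (23.0% of genes), and the median was -0.93 against -0.56 for all genes. With TMM factors, a shift of +0.66, 18 were lower and 3 higher (33.7% and 38.6% of genes), and with DESeq2 factors, a shift of +0.88, 14 and 8 (29.3% and 43.9% of genes). Relative to the median of all genes, 41 of the 52 members were lower. By complex the log2 ratio ran from -1.18 for complex III to -0.57 for complex II, with complex I at -0.85. The TMM shift would place complex II above 0, and the DESeq2 shift both complex I and complex II. The mt-encoded genes were at -1.90 (8298 against 31069 CPM), further below 0 than the members. Ribosomal protein transcripts were lower still, at -2.53 (33447 against 193812 CPM). Atp5g1 and Atp5g2, both among the 5 lowest in LIP, were the lowest members here, with 41.0 against 225 CPM (-2.46) and 96.9 against 475 CPM (-2.29). Ndufb7 had 218 against 179 CPM (+0.28, -0.11 to 0.68), and Ndufa3 196 against 227 CPM (-0.21, -0.59 to 0.17).

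The 3 genes for the c subunit were set side by side, since they encode 1 mature protein behind different import sequences. Atp5g1 supplied 17.3% (12.1 to 23.5) of their 185 UMIs in LIP neutrophil-like cells and 18.5% of 119 in control. In macrophage-like cells its part was 33.2% (30.9 to 35.6) of 1572 UMIs in LIP and 25.5% of 522 in control. Atp5g3 took 38.9% and 37.8% in the neutrophil-like cells against 25.5% and 20.7% in the macrophage-like cells. In mural-like cells Atp5g3 also had a large part, 29.9% in LIP and 34.4% in control. Atp5g2 led in all of these classes, with 39.7% to 53.8%. Within neutrophil-like cells of LIP the part of Atp5g1 was 12.7% (7.44 to 19.8) in a sub-cluster led by granule genes and 27.1% (16.4 to 40.3) of only 59 UMIs in one with Acod1 and Ccl3 in front.

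Genes that work with the members were described by lists. For cytochrome c, 2 of 3 genes had enough UMIs in LIP and both were lower in neutrophil-like cells by 1.5-fold or more: Cycs, cytochrome c itself, had 68.0 against 278 CPM, and Cyc1, the cytochrome c1 subunit of complex III, 21.6 against 106 CPM. The counts that follow are in CPM, where 49.9% of all genes were lower in LIP and 49.0% in control. In the tricarboxylic acid cycle list, 8 of 10 were lower and 0 higher in LIP (median -1.28). For carriers and uncouplers in LIP it was 6 of 7 (median -2.01) and for mitochondrial fatty acid oxidation 5 of 5 (median -1.79). In control, 4 of 4 carriers and uncouplers were lower (median -1.29). Only 1 tricarboxylic acid cycle gene had enough UMIs there (+0.57), and 0 fatty acid oxidation genes. Of complex III, IV and V assembly genes, 3 of 4 were lower and 1 higher in LIP (median -1.41). In control the only 1 compared was higher (+0.63). This list summed to 719 against 912 CPM in LIP and 436 against 683 CPM in control. Of the glycolysis list, 8 of 13 were lower and 1 higher in LIP (median -0.77), whereas in control 0 of 8 were lower and 5 higher (median +0.73). The shifts of +0.92 and +1.18 in LIP apply to these lists too, and place the glycolysis median there above 0. Among 11 regulators of mitochondrial genes only Gabpb1, a GABP subunit, passed 100 UMIs, with 48.2 CPM in neutrophil-like and 26.0 CPM in macrophage-like cells of LIP. Below that limit, Nrf1 had 16.7 and 28.8 CPM, Gabpa 15.5 and 30.2 CPM and Tfam, the mitochondrial transcription factor, 2.47 and 21.9 CPM. The Tfam value in neutrophil-like cells rests on few UMIs. All 11 regulators together had 156 UMIs (96.4 CPM) in neutrophil-like and 266 UMIs (182 CPM) in macrophage-like cells of LIP. By promoter letters, the median log2 ratio was -1.76 for 17 members with the NRF1-type motif and -1.75 for 46 without. For CCGGAAG it was -1.36 for 16 members with it and -1.82 for 47 without, a difference that was not tested.

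Neutrophil-like cells split into Acod1/Ccl3 cells, named here by their leading genes (272 in LIP, 30 in control), and cells with the secondary granule genes Ltf, Camp and Ngp in front (48 in LIP, 25 in control). In LIP the members had 9424 CPM in the granule-gene cells and 6178 CPM in the Acod1/Ccl3 cells, a log2 ratio of +0.61 (0.56 to 0.66). In control it was 9711 against 7015 CPM (+0.47, 0.36 to 0.58). Complex I differed most between the sub-clusters in LIP, with 2920 against 1642 CPM (+0.83), and again in control, with 3132 against 1853 CPM (+0.76). The mt-encoded genes did not follow in LIP (9635 against 10236 CPM, -0.09) but did in control (8883 against 6387 CPM, +0.48). In CPM both sub-clusters lay below macrophage-like cells, by -1.16 and -1.77 in LIP and by -0.90 and -1.37 in control. Other scaling factors were not computed for sub-clusters. For the whole class the DESeq2 shift was +1.18 in LIP and +0.88 in control, about the size of the granule-gene values. The granule-gene cells were deeper, with median UMIs of 11207 and 3634 in LIP, and the part of depth in this difference was not tested.

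To compare LIP with control, each class with at least 20 cells per library was taken on its own. In neutrophil-like cells the members had 7450 CPM in LIP and 9079 CPM in control, a log2 ratio of -0.29 (-0.33 to -0.24), which became +0.03 with TMM and -0.03 with DESeq2 factors, scalings that shifted all genes by +0.31 and +0.26. Of 50 members with enough UMIs, 10 were lower by 1.5-fold (11.5% of 2047 genes) and 0 were higher (28.2% of genes). The median member was at -0.28 and the median gene at +0.09, and 45 of 50 members lay below the median gene. With either of the other scalings 6 members were lower and 1 higher, and of all genes 3.81% lower and 40.4% higher with TMM factors. Different sub-clusters held most of the class in each library: the Acod1/Ccl3 cells had 60.8% of its UMIs in LIP and 23.4% in control. Within them the log2 ratio was -0.18 (-0.29 to -0.08), and within the granule-gene cells -0.04 (-0.10 to 0.01). A pair of deep control cells with granule genes and the proliferation gene Mki67 held 12.9% of the control UMIs, and without them the ratio of the class was -0.17 and that of the granule-gene cells +0.08.

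Members of complex I were most numerous among those lower in LIP neutrophil-like cells, with 7 of 18 past 1.5-fold in CPM, where 11.5% of all genes were. Since only 6 of all 50 members remained lower with either other scaling, not all 7 would be, and the mix of sub-clusters also differed. Ndufv3 had 58.1 CPM in LIP and 140 CPM in control (-1.27, -1.72 to -0.81), Ndufa8 53.2 and 106 CPM (-1.0) and Ndufb3 48.8 and 93.2 CPM (-0.93). Uqcr10 of complex III had 89.0 and 179 CPM (-1.01) and Atp5g2 50.1 and 96.9 CPM (-0.95). The highest ratio was that of Uqcr11, with 67.4 and 48.5 CPM (+0.48, -0.15 to 1.15), followed by Cox6b1 (+0.24), Ndufa7 (+0.20), Atp5l (+0.17) and Atp5e (+0.16), and the interval of each included 0. The mt-encoded genes stood at +0.27 (0.22 to 0.32) in the same cells. In the glycolysis list 1 of 12 was higher and 0 lower (median -0.18).

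In macrophage-like cells the members had 21130 CPM in LIP (79 cells) and 18095 CPM in control (41 cells), a log2 ratio of +0.22 (0.19 to 0.26). Of 75 members, 11 were higher by 1.5-fold (17.8% of 2872 genes) and 2 lower (8.74% of genes), so in CPM neither share exceeded that of all genes. With TMM factors 16 were higher and 1 lower (20% and 7.35% of genes), and with DESeq2 factors 7 and 2 (16.2% and 9.96% of genes). The median member was at +0.26 and the median gene at +0.08. The difference was smaller where deep cells weighed less. With every cell thinned to 1000 UMIs it was +0.04, and without the 10 cells with most UMIs in each library -0.02. The mt-encoded genes were at -0.06. In the glycolysis list 9 of 11 were higher and 0 lower (median +1.19).

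Complex II had the largest log2 ratio of the 5 complexes in macrophage-like cells, +0.50 (0.26 to 0.74; 435 against 308 CPM). Sdhb had 160 CPM in LIP and 91.3 CPM in control (+0.81, 0.37 to 1.26). A single LIP cell, described below, held 81 of the 634 complex II UMIs in LIP, and without it Sdhb had 138 CPM there. Ndufa4, a complex IV subunit once assigned to complex I, had 359 and 208 CPM (+0.79), and Cox7a2, a general complex IV subunit, 441 and 262 CPM (+0.75). Ndufb6 had 119 and 72.7 CPM (+0.71) and Uqcrq 372 and 233 CPM (+0.67). In contrast Cox7a2l, a supercomplex factor related to Cox7a2, had 271 CPM in LIP and 433 CPM in control (-0.67, -0.90 to -0.44). Ndufs8, a core iron-sulfur subunit, had 88.4 and 137 CPM (-0.63). The remaining lowest members were Ndufaf8 (-0.28), Uqcrh (-0.27) and Ndufa6 (-0.24).

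A single LIP cell of the macrophage-like class carried transcripts of all 6 osteoclast marker genes listed, among them 403 UMIs of Acp5, 161 of Ctsk and 122 of Mmp9, and 0 of the macrophage genes C1qa, C1qb and C1qc. A lack of these C1q UMIs was not particular to this cell: 6 others of the class, given below, also had 0. The cell was picked out after its values had been seen. Its member level of 59591 CPM (57465 to 61775) was the highest of the 1730 cells with at least 1000 UMIs. It is a single case: the LIP cell with the next most osteoclast marker UMIs, 164 from 2 of the genes, had 18084 CPM and ranked 862, and a further 6 cells with 39 to 133 such UMIs had 14629 to 33634 CPM. In each of these other cells most of the marker UMIs were of Acp5 (31 to 159), with at most 5 of Ctsk and 2 of Mmp9. They are thus not like cases. By complex the cell with all 6 markers had 15476 CPM for complex I, 1628 for II, 6994 for III, 16702 for IV and 18792 for V, while its mt-encoded genes stood at 34589 CPM, near the class value of 29730 CPM. The cell had 49756 UMIs and 5896 genes, and whether its barcode held more than 1 cell was not tested. It supplied 3.41% of the UMIs of the LIP macrophage-like class and 9.62% of its member UMIs. Without it the class had 19771 CPM, its LIP over control log2 ratio was +0.13, and the neutrophil-like over macrophage-like ratio in LIP was -1.41.

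Epithelial-like cells were the most deeply sampled, and there the members hardly differed between libraries. They had 28116 CPM in LIP and 27738 CPM in control, a log2 ratio of +0.02 (0.01 to 0.03) that turned to -0.02 with TMM factors. Of 84 members, 0 were higher and 0 lower by 1.5-fold, where 4.32% and 4.13% of 7507 genes were. Ndufa4l2 had 106 CPM in LIP and 140 CPM in control (-0.40, -0.60 to -0.20), and Ndufa10 145 and 176 CPM (-0.28). Ndufa4 had 685 and 563 CPM (+0.28, 0.20 to 0.37), Ndufa3 258 and 215 CPM (+0.27), Ndufb7 164 and 138 CPM (+0.24) and Ndufa5 200 and 172 CPM (+0.22). The other members at either end, Atp5s (-0.45), Ndufaf1 (-0.32), Ndufaf5 (-0.17) and Ndufaf2 (+0.29), were scarce and their intervals included 0. The 3 epithelial-like sub-clusters gave -0.02, +0.03 and +0.12.

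Of the 9 classes compared, the T-like and B-like classes had the largest LIP over control values in CPM, but with TMM factors the B-like value was below those of all others except the epithelial-like class. In T-like cells it was +0.46 (24528 against 17808 CPM). Of 45 members, 17 were higher by 1.5-fold (21.7% of 863 genes) and 0 lower (9.39% of genes), with a median of +0.52 against +0.11 for all genes, and 40 of 45 lay above the median gene. With TMM and DESeq2 factors 12 and 11 members were higher, where 18.5% and 18.1% of all genes were. The value was +0.46 after thinning and +0.49 without the 10 deepest cells of each library. A sub-cluster led by Il17a and Trdc held 65.1% of the class's UMIs in LIP and 36.1% in control. Within it the ratio was +0.37 (0.31 to 0.44), and within the sub-cluster led by Xcl1 and Nkg7 +0.31 (0.23 to 0.39). The mt-encoded genes were at -0.09, and 8 of 9 genes of the glycolysis list were higher (median +1.0).

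Named members of the T-like class came from complexes I, III, IV and V, since no complex II gene had enough UMIs to be compared there. Ndufb9, an accessory subunit of complex I, had 244 CPM in LIP and 111 CPM in control (+1.14, 0.56 to 1.73). Cox5a, a general complex IV subunit, had 499 and 238 CPM (+1.07), Ndufs5 280 and 135 CPM (+1.06), and Atp5d, the delta subunit of F1, 623 and 314 CPM (+0.99). Uqcrfs1, the Rieske iron-sulfur protein of complex III, had 233 and 124 CPM (+0.91). Cox7a2l, lower in LIP macrophage-like cells, had the lowest ratio here, with 306 and 394 CPM (-0.36, -0.77 to 0.03).

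In B-like cells the log2 ratio was +0.43 (19227 against 14306 CPM; 20 and 154 cells), but +0.01 with TMM and +0.14 with DESeq2 factors, which shifted all genes by -0.41 and -0.29. There 13 of 51 members were higher by 1.5-fold (18.2% of 1171 genes) and 0 lower (14.9% of genes), and the median was +0.41 against +0.15. With either of the other scalings 1 member was higher and 2 lower, and of all genes 5.47% higher and 29.4% lower with TMM factors. In these cells Cox7a2l had the highest ratio, with 646 CPM in LIP (64 UMIs) and 316 CPM in control (+1.03, 0.62 to 1.43, on the CPM scale), and Cox8a had 919 and 528 CPM (+0.80). A sub-cluster led by Vpreb3 held 34.4% of the B-like UMIs in LIP and 5.17% in control. Its 8 cells in each library had 19451 CPM in LIP and 23773 CPM in control, the reverse of the class, while the other B-like cells gave +0.47. Without the 10 deepest cells of each library the class stood at +0.19.

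**Figure D3:**
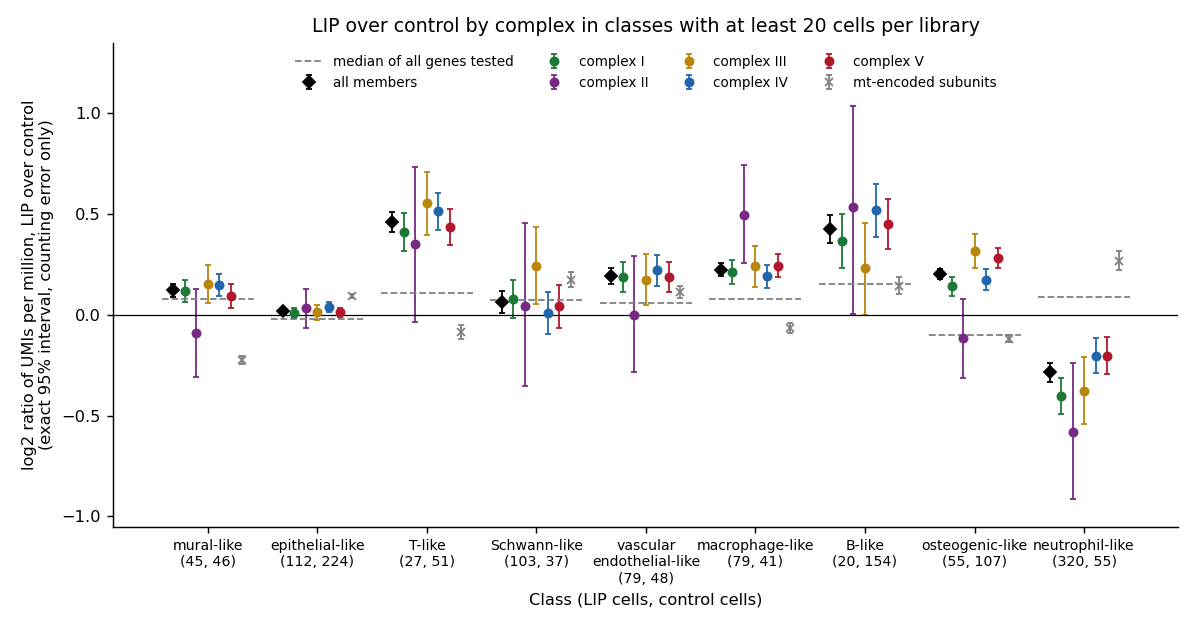
log2 ratio of CPM, LIP over control, for all members, each complex and the mt-encoded genes, in the 9 classes with at least 20 cells per library. Bars are exact 95% intervals that cover counting error only, and the dashed lines are medians of all genes; T-like (+0.46) and B-like (+0.43) cells are highest and neutrophil-like cells (-0.29) lowest, but B-like and neutrophil-like cells come to +0.01 and +0.03 with TMM factors.

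In CPM the differences in the stromal and glial classes were smaller than those in T-like and B-like cells. The osteogenic-like class held cells led by Ibsp and Bglap, which are bone matrix genes, and cells led by Mfap4, Clec3b and Dpt, which are known from fibroblasts and had 1 osteogenic marker, Dcn, among their 10 leading genes. The Mfap4 cells held 78.8% of the UMIs of the class in control and 36.8% in LIP, so the name describes the control cells poorly. As a class these cells had 19140 CPM in LIP and 16638 CPM in control (+0.20, median member +0.19 against -0.10 for all genes). There 3 of 78 members were higher by 1.5-fold (8.16% of 3751 genes) and 1 lower (16.6% of genes), the latter being Ndufa4l2. The higher members were Atp5e (1042 and 647 CPM, +0.69), Uqcrq (293 and 186 CPM, +0.66) and Ndufa3 (233 and 154 CPM, +0.60). The Ibsp/Bglap cells gave +0.28 (0.23 to 0.33) and the Mfap4 cells +0.09 (0.05 to 0.13). Without the 10 deepest cells of each library the class gave +0.12. With TMM and DESeq2 factors, shifts of +0.17 and +0.13, 14 and 11 of the 78 members were higher and 1 lower, and of all genes 12.9% and 11.6% higher and 10.6% and 11.7% lower. The osteogenic-like ratio was then +0.37 and +0.33, where T-like cells had +0.39 and +0.38. With any of these scalings 67 of the 78 members lay above the median gene. Mural-like cells gave +0.12, and 2 of 76 members were higher by 1.5-fold (11.2% of 1929 genes) and 0 lower (11.0% of genes). The 2 were Ndufa4l2 and Ndufa10. After thinning the mural-like value was +0.03. Within the Myh11 cells, which held 69.4% of the mural-like UMIs in control and 52.1% in LIP and had more member transcripts, the ratio was +0.17, and within the Rgs5 cells +0.26. Vascular endothelial-like cells stood at +0.19 (median member +0.17 against +0.06), or +0.07 without the 10 deepest cells, and Schwann-like cells at +0.06 (median member +0.13 against +0.07), which TMM factors moved to +0.29 and +0.28, respectively, for all members.

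Some isoform genes of complex IV differed widely between classes. Cox4i1, the general form of subunit 4, was found in every class. Outside the erythroid-like class it ran from 300 CPM in LIP neutrophil-like cells to 1148 CPM in control epithelial-like cells. Its isoform gene Cox4i2 (chr2:152754173-152765037, plus strand), known from oxygen-sensing and lung tissue, had most of its UMIs in mural-like cells. There it had 328 of its 401 UMIs or 513 CPM (459 to 571) in LIP and 214 of its 293 UMIs or 362 CPM (315 to 414) in control, in 39 of 45 and 39 of 46 cells. Cox4i1 in the same cells had 953 and 843 CPM. At 1000 UMIs per cell, Cox4i2 would be found in an expected 35.7% of LIP and 30.8% of control mural-like cells. These are means of expectations over cells and not counts of cells, so no interval is given. For comparison, 3 of 112 LIP and 3 of 224 control epithelial-like cells had a UMI, and whether these came from free RNA was not tested. Median depths there were 23929 and 27595 UMIs (12344 and 12179 in mural-like cells). At 1000 UMIs per cell the expected shares of epithelial-like cells were 0.0869% and 0.0594%. Neutrophil-like cells had 0 UMIs in 320 LIP cells, for which a floor of 3 UMIs is 1.85 CPM, and 1 UMI in 55 control cells. Osteogenic-like cells were between, with 20.7 and 39.2 CPM. Although held out of the clustering features, Cox4i2 was among the 10 leading genes of the mural-like sub-cluster led by Rgs5. In those pericyte-marker cells it had 640 CPM in LIP and 409 CPM in control, and in the sub-cluster led by Tagln and Myh11, which mark smooth muscle, 396 and 342 CPM.

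Ndufa4l2, a paralog of Ndufa4 known as a target of hypoxia signalling, was also highest in mural-like cells among the named classes in CPM. It had 855 CPM (785 to 930; 547 UMIs) in LIP and 428 CPM (377 to 484; 253 UMIs) in control, a log2 ratio of +1.0 (0.78 to 1.22), in 38 of 45 and 37 of 46 cells. The more deeply sampled epithelial-like cells held 274 of its UMIs in LIP and 864 in control. Ndufa4 had 274 CPM in LIP and 388 CPM in control over the class (-0.50, -0.79 to -0.21). This was 366 against 486 CPM in the Myh11 cells, but 173 against 166 CPM in the Rgs5 cells. The difference of Ndufa4l2 was present in both sub-clusters, at 744 against 298 CPM in the Myh11 cells and 976 against 723 CPM in the Rgs5 cells. In osteogenic-like cells the order of the libraries was the reverse, in the Mfap4 cells (68.2 and 177 CPM) and the Ibsp/Bglap cells (37.4 and 57.8 CPM, with overlapping intervals): 48.8 CPM (37.7 to 62.0) in LIP and 152 CPM (131 to 176) in control, or -1.64 (-2.07 to -1.23). Outside the mural-like, osteogenic-like and epithelial-like classes it reached 51.7 CPM in control Schwann-like cells (9 UMIs in 4 cells) and was below 10 CPM in all other named classes.

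**Figure D4:**
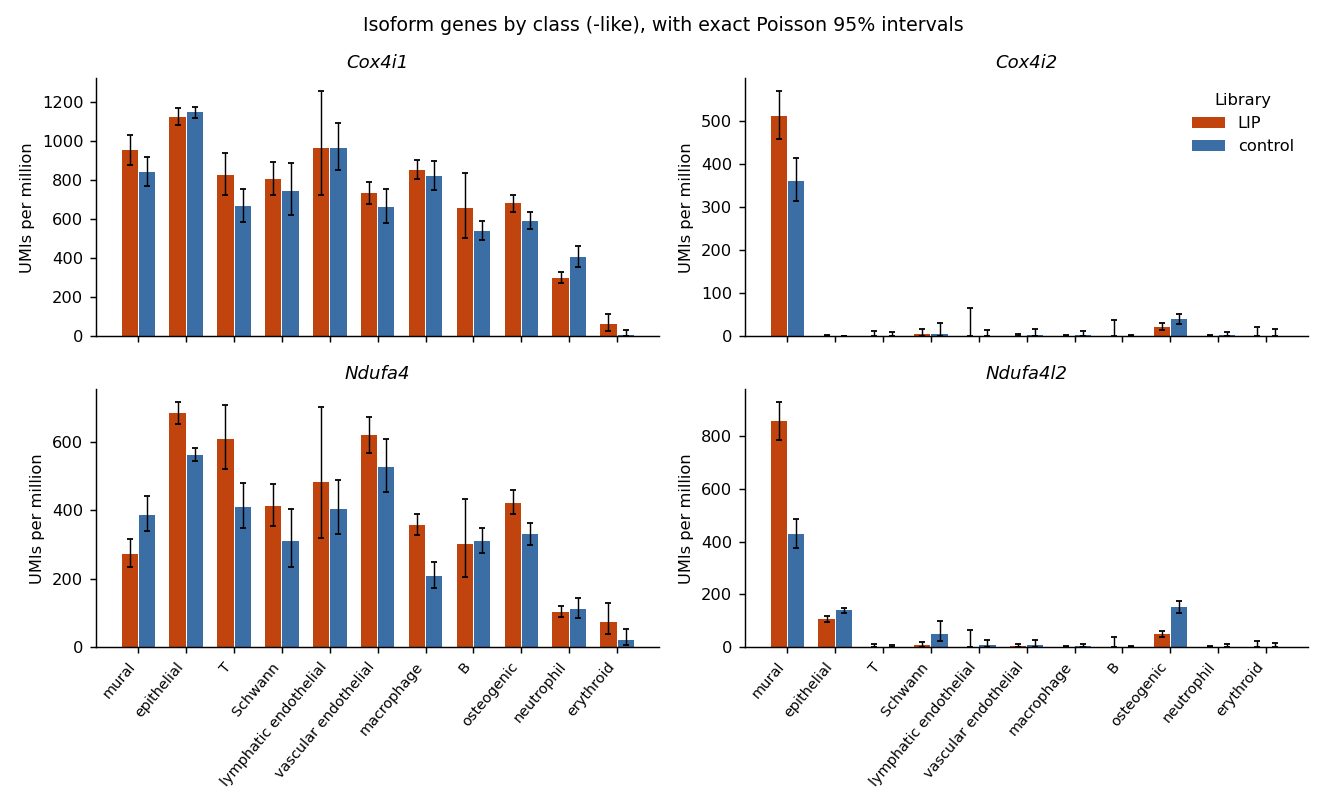
CPM of Cox4i1, Cox4i2, Ndufa4 and Ndufa4l2 in each class, LIP (orange) and control (blue), with exact Poisson 95% intervals. Cox4i2 (513 and 362 CPM) and Ndufa4l2 (855 and 428 CPM) peak in mural-like cells, whereas Cox4i1 is found at 300 to 1148 CPM outside the erythroid-like class.

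The other tissue-restricted isoforms were scarce. Cox6b2, known from testis, had 209 UMIs in all, and its general partner Cox6b1 had 11478. In Rgs5 mural-like cells Cox6b2 had 32.6 CPM (10 UMIs) in LIP and 121 CPM (22 UMIs) in control. The Myh11 cells had the other order, 29.99 CPM (10 UMIs) in LIP and 7.32 CPM (3 UMIs) in control. Cox7a1, the heart and muscle form, had 95 UMIs against 10843 for Cox7a2, and the 22 in control osteogenic-like cells lay in 1 cell. Cox6a2, also a heart and muscle form, had 78 UMIs against 6834 for Cox6a1. Of the Cox6a2 UMIs, 36 were in 3 control macrophage-like cells, 17 in 1 LIP macrophage-like cell and 24 in 4 LIP B-like cells, 21 of them in 1 cell. Cox8b had 1 UMI, while its partner Cox8a led the members. Cox7b had 7230 UMIs and its isoform gene Cox7b2 none.

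The mt-encoded subunits of the same complexes were measured in the same cells. They exceeded the nuclear members in UMIs in all classes except neutrophil-like control cells: the ratio of mt-encoded to member UMIs was 0.914 in control neutrophil-like cells and 1.34 in LIP neutrophil-like cells. In macrophage-like cells it was 1.41 in LIP and 1.72 in control, in mural-like cells 2.04 and 2.60, and in B-like cells, where it was highest, 2.68 and 3.26. Mural-like cells also had the highest mt-encoded level, 61380 CPM in LIP and 71741 CPM in control. Cells had been kept only up to 10% mt- UMIs, which bounds these values. Cell by cell, the Spearman correlation between the members' share and the mt-encoded share of UMIs ran from -0.40 (20 LIP B-like cells) to +0.44 (37 control Schwann-like cells) and was +0.07 over 320 LIP neutrophil-like cells. Both shares come from 1 library and 1 total per cell.

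**Figure D5:**
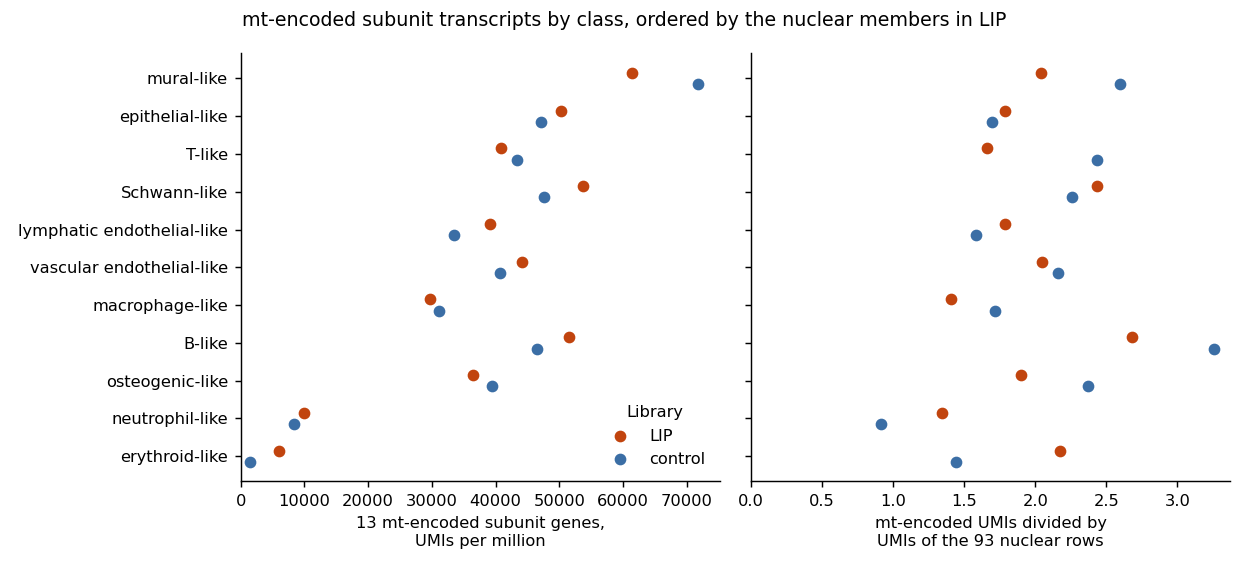
Left: CPM of the 13 mt-encoded subunit genes by class; right: mt-encoded UMIs divided by member UMIs; LIP in orange, control in blue, classes in the order of the members in LIP. The quotient is lowest in control neutrophil-like cells (0.914) and highest in control B-like cells (3.26).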

How the data were processed

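The authors prepared libraries using the v3 form of the 10x 3′ chemistry and aligned reads to mm10 with Cell Ranger (3.1.0 in the matrix headers). The deposited values are UMI counts, whole numbers that were not normalized. The control matrix held 1169 barcodes (16472915 UMIs) and the LIP matrix 1212 (14236327 UMIs). Cell Ranger counts reads assigned to 1 gene, so members with near-identical copies may be undercounted.

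Cells were filtered with the study's limits. Anchor integration and clustering of the 2 libraries were done in Seurat 5.3.0 (R 4.3.3) with members and mt- genes held out (2000 variable features, 30 dimensions, resolution 0.1, sub-clusters at 0.2), and clusters were named from at least 3 detected markers. Scrublet (scanpy 1.11.5) marked 2 LIP and 3 control barcodes, too few to count as doublet removal, and none were left out. UMIs were summed by class and library. Single genes were compared if both groups together held at least 100 UMIs, and 1.5-fold counted as a difference. With 1 library per condition no p-value was computed. Thinned values are hypergeometric expectations, which replaced 1 random draw after the draw was found to move them. Intervals are exact Poisson (sums), conditional Clopper-Pearson (ratios) and Clopper-Pearson (shares), from scipy 1.17.1. edgeR 4.0.16 (TMM) and DESeq2 1.42.0 served only for alternative scaling, which was added for classes beyond those planned after the data had been seen. Computations were tested on simulated data.

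Members, gene lists and markers were chosen with earlier results of these data known. Genes named were the isoform pairs, Atp5g1 to Atp5g3, complex II and the 3 most abundant members of each complex. Also named were the 5 highest and lowest ratios of a comparison, members without UMIs, and some genes of the cytochrome c and regulator lists. A single cell with osteoclast markers, a pair of control neutrophil-like cells and the genes of further classes were named after their values were seen.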

Additional observations from a re-analysis of the deposited data

How the results depend on the processing

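No paired analysis was possible because each condition is 1 library. For neutrophil-like over macrophage-like cells of LIP the members' log2 ratio of -1.50 kept its direction under all alternatives run. It moved to -1.57 at resolution 0.05, -1.58 with 15 dimensions, -1.39 and -1.58 with limits of 5% and 20% mt- UMIs, -1.59 with equal weight per cell, -1.73 without mt- and ribosomal protein UMIs, -0.58 with TMM and -0.33 with DESeq2 factors, -1.59 without the 5 most abundant members and -1.55 after thinning. The neutrophil-like LIP over control value (-0.29) was -0.17 with members among the variable features and with Scrublet-marked barcodes left out (both re-clusterings lost the same pair of deep control cells), -0.18 at 5% mt- UMIs, +0.029 with TMM and -0.028 with DESeq2 factors. Chosen after seeing the data, it was -0.18 and -0.043 within the Acod1/Ccl3 and granule-gene sub-clusters. The macrophage-like value (+0.22) was 0.29 at resolution 0.05 and with 15 dimensions, 0.11 and 0.30 at 5% and 20% mt- UMIs, 0.050 with equal weight per cell, 0.14 without mt- and ribosomal protein UMIs, 0.27 with TMM and 0.18 with DESeq2 factors, 0.040 after thinning and, chosen after seeing the data, -0.016 without the 10 deepest cells of each library. The epithelial-like value (+0.02) was -0.015 at resolution 0.3, -0.011 without mt- and ribosomal protein UMIs, -0.015 with TMM, 0.00012 with 15 dimensions and 0.043 with DESeq2 factors. The cause of these moves was not tested, except that thinning and leaving out cells change the weight of deep cells. The count of single members lower in neutrophil-like cells stayed within 1.5 times with a 2-fold threshold, at least 50 UMIs or no filter. At 2000 UMIs per cell the expected share of LIP mural-like cells with Cox4i2 was 53.5%, against 35.7% at 1000. Leaving out a replicate was not possible with 1 library per condition. Low UMI counts limit what can be said of complex II and the scarce isoform genes.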
